A study of Mus musculus with 6 samples.

Results

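Proteins that a vessel's endothelial cells make help to keep blood fluid, to form clots and to dissolve them. The 9 genes described here encode such proteins: Vwf, F8, F3, Tfpi, Thbd, Procr, Plat, Plau and Plaur. They were chosen by name for their known role in coagulation and fibrinolysis, and all 9 were found among the 49315 gene IDs counted and passed the filter on low counts.

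Transcripts were counted in sorted endothelial cells from tumours of 4T1, a mouse mammary carcinoma line that grows in Balb/c hosts. In every group the host was a female Balb/c mouse, injected with 1000000 tumour cells in the inguinal mammary fat pad at 8 weeks of age, and the tumour was taken 2 weeks later, at 10 weeks of age. Every mouse received 1E12 gold nanoparticles, 50 nm across, coated with 5 kDa mPEG and labelled with Cy5, through the tail vein, and tumours were harvested 1 hour afterwards, so no group was without particles. Cells left after removal of CD45-bearing leukocytes and enriched for CD31 were sorted into a nanoparticle-positive (NP+) and a nanoparticle-negative (NP-) fraction. Each of 3 tumours gave 1 library of each fraction: MET-106, MET-107 and MET-108. Values are given in that order throughout. The comparison asks which transcripts differ between endothelial cells that carried particles and those that did not. A limit of the model is that the fractions are bulk sorts, in which fewer cells of a type and less RNA per cell cannot be told apart.

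Coagulation starts when F3, tissue factor, which is abundant on cells around vessels and on many carcinoma cells and scarce on resting endothelium, meets factor VIIa in plasma. Endothelium opposes it with Tfpi, the tissue factor pathway inhibitor, and with thrombomodulin (Thbd) and the endothelial protein C receptor (Procr). Thrombomodulin turns thrombin into an activator of the anticoagulant protein C, which Procr binds. Vwf, von Willebrand factor, tethers platelets and carries factor VIII (F8), and is stored in endothelial Weibel-Palade bodies. Plat and Plau are the tissue-type and urokinase-type activators of plasminogen, the precursor of the enzyme that digests fibrin, and Plaur is the receptor that holds urokinase on the cell surface.

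The 6 libraries held 20856410 to 58089600 gene counts. The CD31 gene Pecam1 stood at 2815 to 3812 CPM (read counts normalized to library size, with TMM scaling) in NP+ and 1931 to 2825 CPM in NP-, and the CD45 gene Ptprc at 3.71 to 5.61 and 5.89 to 25.7 CPM. Libraries of the NP- fraction varied more than those of the NP+ fraction. The median SD of log2 CPM over 10426 protein-coding genes of at least 5 CPM was 0.172 in NP+ and 0.382 in NP-. The MET-106 NP- library stood apart from the other NP- libraries: it held 3834 CPM of 10 summed fibroblast markers and 579 CPM of 10 epithelial and carcinoma markers, against 64.9 to 139 CPM and 20.0 to 39.2 CPM in the other NP- libraries. The MET-107 NP- library held the most lymphatic endothelial markers, 2044 CPM summed over 10 genes, against 451 to 856 CPM in the other NP- libraries and 603 to 673 CPM in NP+. These values are given again beside the genes they move with.

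The RefSeq table for GRCm38.p6 held promoters for 5 of the 9 genes, and 3 are printed, 5′ to 3′ on the gene's strand, ending just before the first start annotated by RefSeq or in the count files. F3 and Procr are shown because they had unadjusted p values under 0.05 in opposite directions, and Plaur because it shares a motif with both. That motif is AP-1, so the AP-1 match of Plaur was fixed by this choice. Capitals mark matches on either strand to 6 motifs: AP-1 (TGANTCA), an NF-kappaB-like motif (GGANTTTCC), Sp1 (GGGCGG), Egr (GCGGGGGCG), ETS (AGGAAG) and a Krüppel-like factor motif (CCNCACCC). Where matches overlap, 1 run of capitals covers them.
F3 (chr3:121723287-121723536, plus strand): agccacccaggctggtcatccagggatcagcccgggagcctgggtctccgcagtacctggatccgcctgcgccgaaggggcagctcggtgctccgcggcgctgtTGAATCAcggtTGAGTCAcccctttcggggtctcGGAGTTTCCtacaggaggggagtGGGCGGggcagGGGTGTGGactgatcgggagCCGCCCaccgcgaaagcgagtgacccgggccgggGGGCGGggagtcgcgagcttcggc
Procr (chr2:155750967-155751116, plus strand): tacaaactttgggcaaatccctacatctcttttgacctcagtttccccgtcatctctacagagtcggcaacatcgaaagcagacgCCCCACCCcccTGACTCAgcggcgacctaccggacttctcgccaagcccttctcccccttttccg
Plaur (chr7:24462233-24462482, plus strand): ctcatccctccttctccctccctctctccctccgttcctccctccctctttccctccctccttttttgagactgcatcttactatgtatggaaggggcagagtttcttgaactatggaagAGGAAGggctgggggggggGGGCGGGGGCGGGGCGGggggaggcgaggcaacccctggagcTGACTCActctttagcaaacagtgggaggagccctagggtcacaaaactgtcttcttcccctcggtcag

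The 250 bases before F3 held 2 AP-1 matches, TGAATCA and TGAGTCA, 1 NF-kappaB-like match, GGAGTTTCC, 3 Sp1 matches and 1 Krüppel-like factor match. Of 32851 mouse promoters read over the same 250 bases, 6.75% held an AP-1 match, 1.07% an NF-kappaB-like match, 32.7% an Sp1 match and 14.9% a Krüppel-like factor match. The 150 bases printed for Procr held 1 AP-1 match, TGACTCA, and 1 Krüppel-like factor match, CCCCACCC, found in 4.0% and 7.87% of promoters over the same stretch. The Plaur promoter held 1 AP-1 match, 1 Egr match that overlaps 2 of its 3 Sp1 matches, and 1 ETS match, and 2 of the Sp1 matches overlap by 1 base. Egr and ETS matches were found in 2.57% and 29.5% of promoters of that length. The 234 bases read for Tfpi, not printed, held 1 Sp1 match and 0 AP-1 matches. The promoter of F8 left too short a stretch before the annotated starts and was not read. Factor binding was not measured.

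Per kilobase of exon, 7 of the 9 genes were abundant and F3 and F8 were scarce. Levels per kilobase are given as FPKM, CPM per kilobase of summed exon length. Plau averaged 99.4 ± 14.2 FPKM in NP+ (SD, n = 3, as for all such values) and 77.0 ± 18.7 in NP-. Plaur averaged 92.8 ± 15.2 and 79.7 ± 32.1 FPKM. These urokinase system transcripts ranked 650 and 691 among 17088 protein-coding genes by mean FPKM in NP+, and 666 and 636 in NP-. Procr averaged 72.7 ± 4.63 FPKM in NP+ and 45.4 ± 12.3 in NP-, and Thbd 51.3 ± 7.04 and 81.0 ± 19.9. Tfpi averaged 48.6 ± 2.45 and 39.0 ± 10.3 FPKM, Vwf 48.2 ± 13.5 and 31.2 ± 8.76, and Plat 31.4 ± 4.01 and 39.8 ± 15.3. In NP+, Plau and Plaur lay within their spread of each other, as did Tfpi and Vwf, whereas Procr lay above Thbd in all 3 libraries with no overlap.

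**Figure D1:**
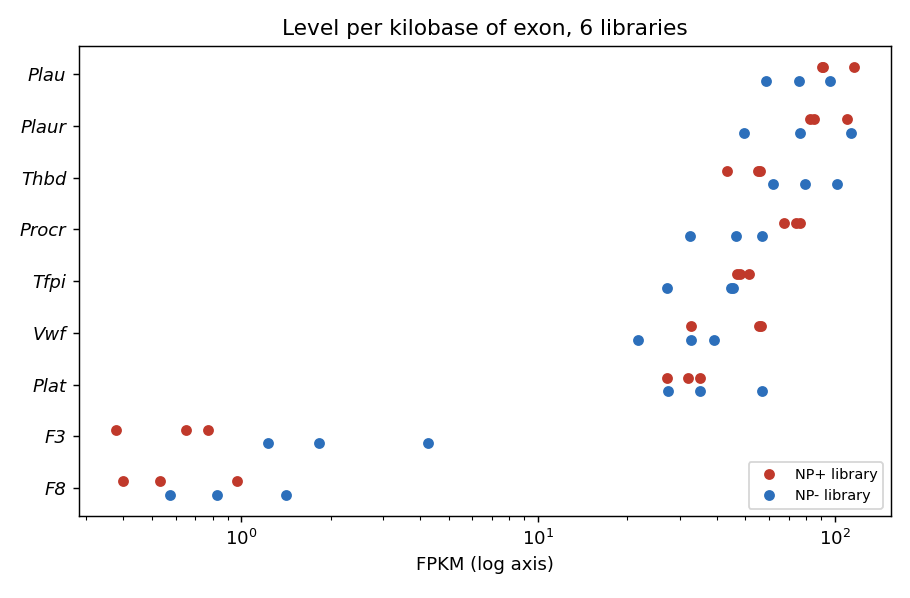
FPKM (log axis) of the 9 genes in the 3 NP+ and 3 NP- libraries, 1 point per library. F3 and F8 sit below 5 FPKM in all 6 libraries, and the other 7 genes above 20 FPKM.

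Thbd and Procr stood in opposite order in the NP+ and NP- fractions. Procr held place 3 of the 9 in each NP+ library and Thbd place 5. In NP-, Thbd held places 3, 1 and 2, and Procr places 4, 4 and 7. F8 averaged 0.632 ± 0.298 FPKM in NP+ and 0.936 ± 0.429 in NP-, and F3 0.600 ± 0.202 and 2.44 ± 1.61. Olfactory receptor genes, which these cells are not known to use, gave 0.0327 to 0.1003 FPKM in NP+ and 0.0872 to 0.422 FPKM in NP- over 1405 genes. F3 lay 6.47 to 19.9 times above that level in NP+ and 3.64 to 48.9 times in NP-, and F8 5.30 to 29.5 and 1.71 to 9.45 times. F8 in the MET-108 NP- library was thus the value nearest to that level.

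**Figure D2:**
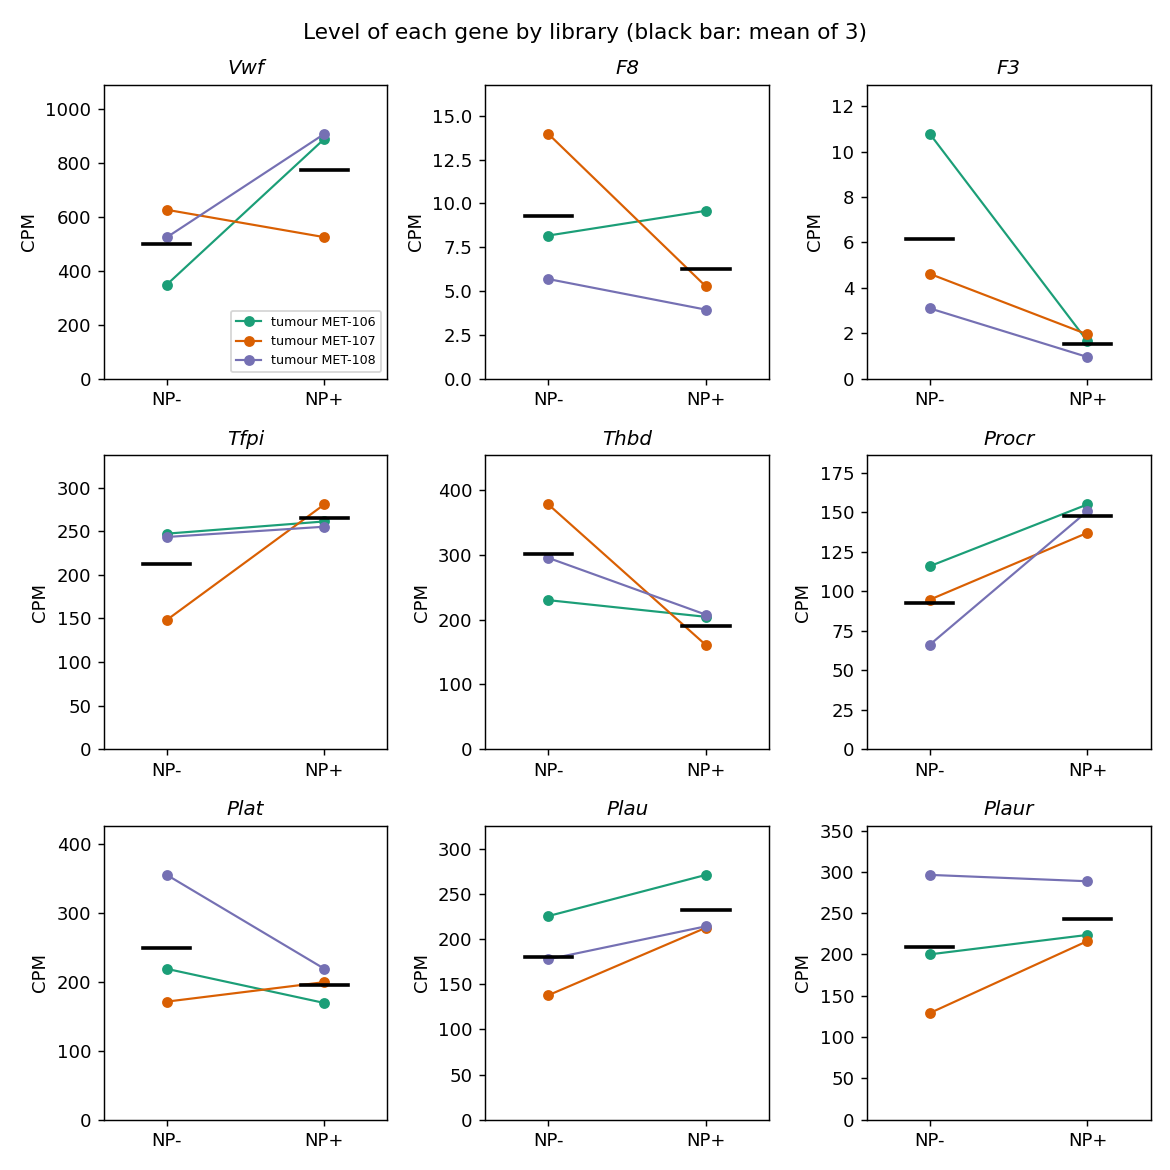
CPM of each gene in the NP- and NP+ library of each tumour, with lines joining libraries of 1 tumour and black bars at the mean of 3. F3 and Thbd are lower in NP+ in all 3 tumours, Procr, Tfpi and Plau are higher in all 3, and Vwf, F8, Plat and Plaur cross.

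Of the 9 genes, 0 passed an adjusted p of 0.05 over all 23989 genes tested by edgeR's quasi-likelihood test, a threshold that 0.0292% of all genes passed, 0.0125% higher and 0.0167% lower. At an unadjusted p under 0.05, 1 of 9 was higher in NP+ (Procr), beside 8.01% of all genes, and 2 of 9 were lower (F3 and Thbd), beside 15.4%, or 3 of 9 beside 23.4% in either direction. By DESeq2, 1 was lower at an adjusted p under 0.05 and 0 were higher, beside 10.3% and 3.17% of all genes with an adjusted p in that test. The groups did not overlap for 2 higher genes (Procr and Tfpi), beside 13.3% of all genes, and for 2 lower genes (F3 and Thbd), beside 15.6%, or 28.9% in either direction. The direction was the same in 3 of 3 tumours for 3 higher genes (Procr, Tfpi and Plau), beside 20% of all genes, and for 2 lower genes (F3 and Thbd), beside 30.2%, or 50.2% in either direction. Each of these counts lay near the share of all genes, so none is a result about the group. The median log2 fold change was 0.22 for the 9 genes and -0.29 for all genes. That median of all genes was -0.53 with upper-quartile, -0.59 with total-count scaling and -0.02 among genes with at least 5 CPM in 3 libraries. Fold changes thus depend on the scaling. The -0.29 covers 23989 genes, scarce ones included, against 10671 with the 5 CPM filter, and is no baseline for the 9. With that filter the fold change of Plaur turned negative, so the -0.02 is on another scale. Whether the 9 genes differ from genes of similar level was not tested.

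**Figure D3:**
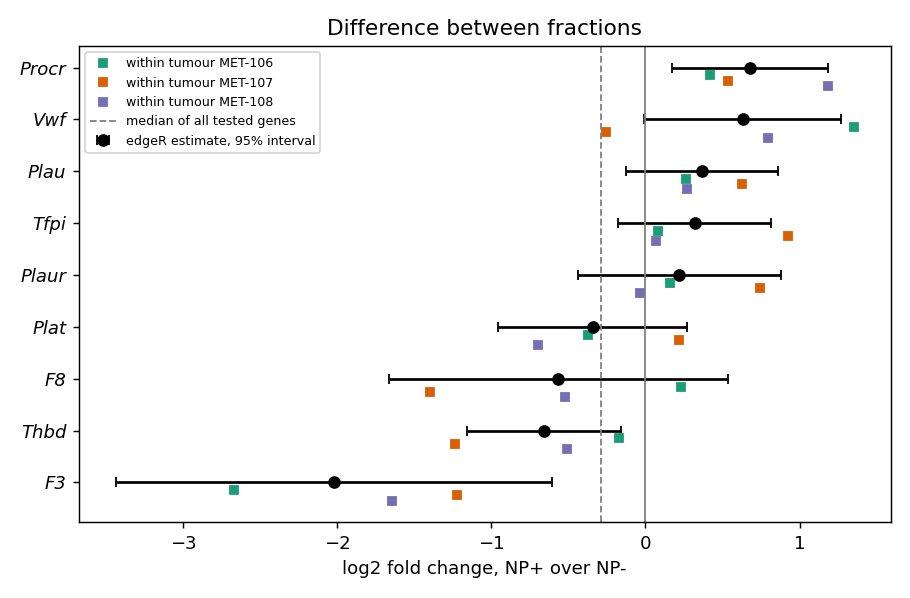
Log2 fold change of NP+ over NP- for each gene, with 95% interval from the edgeR fit (black) and the difference within each tumour (coloured squares). The intervals of Procr, Thbd and F3 exclude 0, and the dashed line marks the median of all tested genes at -0.29.

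Tissue factor, F3, had the largest difference of the 9 genes and was lower in NP+ cells. It stood at 1.65, 1.95 and 0.953 CPM in NP+, against 10.8, 4.61 and 3.09 CPM in NP-. The groups did not overlap, and the MET-106 NP- library was the highest. The NP- mean was 4.06 times the NP+ mean, and the log2 fold change of NP+ over NP- was -2.02 (SE 0.62, adjusted p = 0.143, unadjusted p = 0.0104, edgeR's quasi-likelihood test). The counts behind these values were small, from 38 to 516 reads per library. F3 was the member called by DESeq2, with an adjusted p of 0.0189 here. In the authors' deposited table the log2 fold change of NP- over NP+ was 1.99 with an adjusted p of 0.0228.

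The library with the most F3 also held the most fibroblast, epithelial and pericyte markers. The fibroblast markers summed to 3834, 139 and 64.9 CPM in NP-, and to 58.3, 45.0 and 16.2 CPM in the NP+ libraries, the same order as F3 in NP-. At an unadjusted p under 0.05, 9 of 10 tested fibroblast markers, 8 of 8 tested epithelial and carcinoma markers and 7 of 10 pericyte and smooth muscle markers were lower in NP+, and 0 were higher. Of all genes, 15.4% were lower and 8.01% higher. Epithelial and carcinoma markers summed to 20.0 to 579 CPM in NP- and 8.40 to 12.6 CPM in NP+, with 4 of 10 at 0 in at least 1 library, and pericyte and smooth muscle markers to 164 to 892 and 98.6 to 125 CPM. Leukocyte and macrophage markers ranged from 92.2 to 261 CPM in NP- and from 149 to 284 CPM in NP+, where 1 marker, Cd14, made up 123 to 252 CPM, and 8 of 12 were lower and 1, Cd14, higher at an unadjusted p under 0.05. Cd14 was named after its values were seen. The part of these cells in the F3 difference was not tested. Without the MET-106 NP- library, the NP- mean of F3 was 3.85 CPM in place of 6.16 CPM, and the log2 fold change was -1.29 (adjusted p = 0.165, unadjusted p = 0.0640). The unadjusted p was also above 0.05 without the MET-108 NP+ library (0.0555) and without both libraries of tumour MET-106 (0.147).

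**Figure D4:**
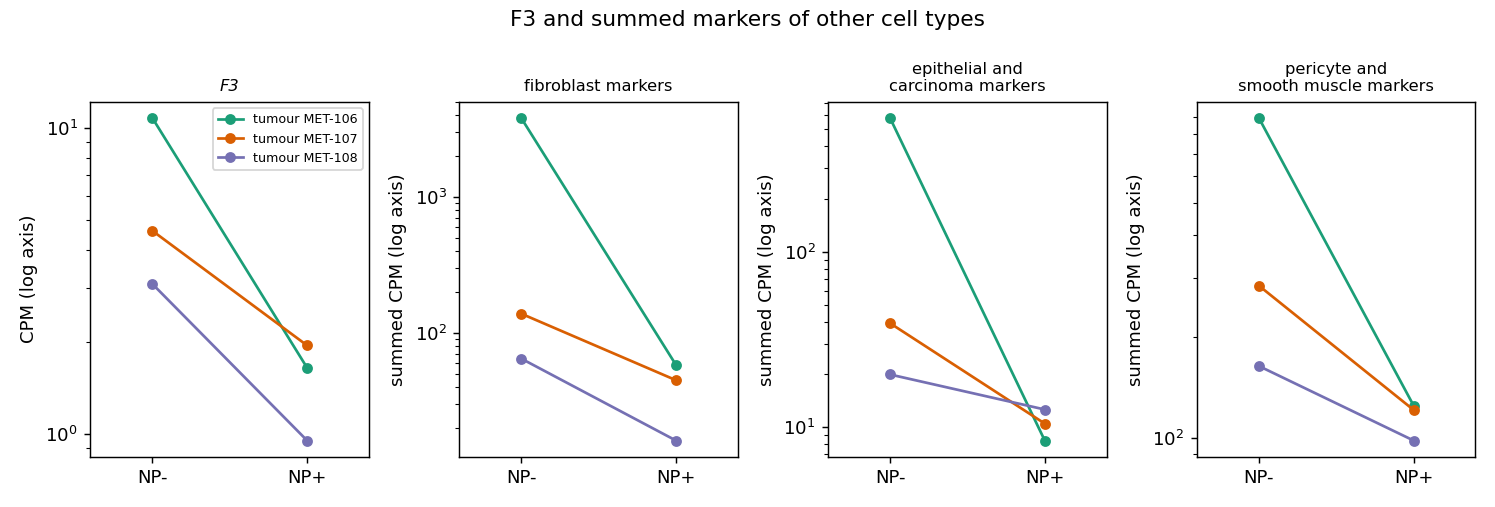
CPM of F3 and summed CPM of fibroblast, epithelial and carcinoma, and pericyte and smooth muscle markers in each library (log axes), with lines joining libraries of 1 tumour. The MET-106 NP- library is highest in all 4 panels, and within each tumour each value is lower in NP+ than in NP-.

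Tfpi, the inhibitor of the complex that F3 forms, was close to even. It stood at 261, 281 and 255 CPM in NP+, and at 247, 148 and 243 CPM in NP-. The groups did not overlap, but 2 of the 3 NP- libraries lay just under the lowest NP+ library, and without the MET-107 NP- library the log2 fold change was 0.13. With all libraries it was 0.32 (SE 0.22, adjusted p = 0.382), with a 95% interval from -0.18 to 0.82. Its relative Tfpi2, which inhibits plasmin and other proteases, stood at 39.6 ± 2.92 CPM in NP+ against 22.5 ± 7.22 CPM in NP- (log2 fold change 0.81, adjusted p = 0.148).

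The 2 surface receptors of the protein C pathway differed in opposite directions. Thbd stood at 205, 161 and 208 CPM in NP+, against 230, 378 and 296 CPM in NP-. All 3 NP- values exceeded all 3 NP+ values, by the least in tumour MET-106. The log2 fold change was -0.66 (SE 0.22, adjusted p = 0.151, unadjusted p = 0.0156). Procr stood at 155, 137 and 151 CPM in NP+, against 116, 94.7 and 66.2 CPM in NP-. All 3 NP+ values exceeded all 3 NP- values, and the mean was 1.60 times as high in NP+. The log2 fold change was 0.68 (SE 0.22, adjusted p = 0.148, unadjusted p = 0.0142). Without the MET-106 NP- library the adjusted p of Procr was 0.0420 and its log2 fold change 0.93, and that of Thbd was 0.0515 with -0.76, in a fit that called 3.48% of all genes higher and 4.86% lower at an adjusted p of 0.05. The unadjusted p of Procr was 0.111 with total-count scaling, 0.0863 with at least 5 CPM in 3 libraries, 0.0537 and 0.0512 without the MET-106 or MET-108 NP+ library, and above 0.05 without both libraries of tumour MET-107 (0.0602) or MET-108 (0.131). That of Thbd was 0.0624 without the MET-107 NP- library, and above 0.05 without any 1 of the NP+ libraries or both libraries of tumour MET-107 (0.156) or MET-108 (0.102). It was also above 0.05 with no low-count filter (0.123) and by DESeq2 with the tumour as a block (0.0689).

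Thbd has 1 exon, so its reads cannot be told from reads of genomic DNA by splicing. The MET-107 and MET-108 NP- libraries, which held the most Thbd, also had the highest olfactory receptor levels, 0.422 and 0.337 FPKM. Thbd stood at 101.6 and 79.4 FPKM in those libraries, and the part of genomic DNA was not tested. Across all genes, 15.4% were lower in NP+ at an unadjusted p under 0.05, and 4 of 10 lymphatic markers were. The MET-107 NP- library, with the most Thbd and the most F8, also held the most lymphatic markers. The part of lymphatic cells in these differences was not tested. With that library left out, the NP- mean of Thbd was 263 CPM.

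Because both receptors were read in the same libraries, their ratio does not depend on the scaling between libraries. The ratio of Thbd to Procr in FPKM was 0.720, 0.640 and 0.752 in NP+, and 1.08, 2.18 and 2.44 in the NP- libraries. Procr was thus the more abundant of the pair in every NP+ library and Thbd in every NP- library. The difference in the log2 ratio was -1.35 (exact two-sided permutation p = 0.1, the smallest p that 3 against 3 libraries allow, and 0.175 adjusted over 7 ratios). Leaving out single libraries, it ranged from -1.71 to -1.13. The ratio of F3 to Tfpi was 0.0136, 0.0150 and 0.00808 in NP+, against 0.0942, 0.0673 and 0.0275 in NP- (log2 difference -2.24, exact permutation p = 0.1, adjusted 0.175). The 7 ratios, of which 6 are given, were chosen after the values had been seen. The permutation exchanged libraries between tumours and so ignored their pairing, and 3 pairs would not allow a p as small.

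**Figure D5:**
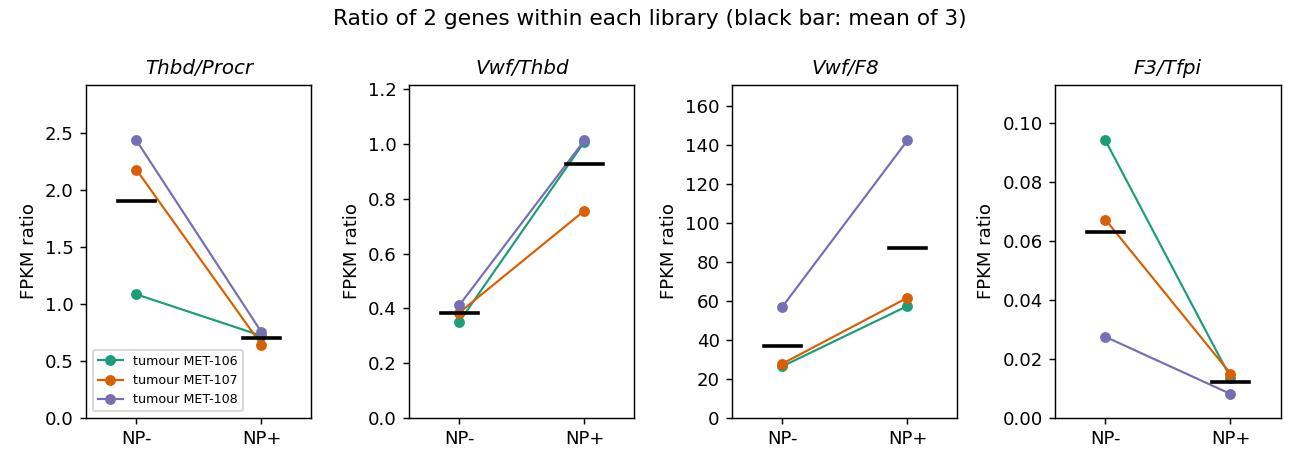
Ratio of FPKM of a pair of genes within each library, with lines joining libraries of 1 tumour and black bars at the mean of 3. Thbd/Procr and F3/Tfpi are lower, and Vwf/Thbd and Vwf/F8 higher, in NP+ in all 3 tumours, with no overlap between fractions. For Vwf/F8 the fractions nearly meet, at 57.3 in NP+ and 56.9 in NP-.

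Vwf had the largest summed exon length of the 9 genes, 16064 bases, and the most reads, 15086 to 36237 per library. It stood at 891, 526 and 909 CPM in NP+, against 349, 627 and 525 CPM in NP-. The fractions overlapped, since in tumour MET-107 the NP- library was the higher. The log2 fold change was 0.63 (SE 0.28, adjusted p = 0.219, unadjusted p = 0.0526), with within-tumour differences of 1.35, -0.26 and 0.79. Leaving out both libraries of tumour MET-107 gave 1.04 (unadjusted p = 0.0101, adjusted p = 0.393), and total-count scaling gave 0.31. The unadjusted p was under 0.05 in 8 of 19 alternative analyses, among them DESeq2 (0.0181, adjusted p = 0.0903). Relative to Thbd in the same library, Vwf was higher in NP+ in every tumour. The FPKM ratio of Vwf to Thbd was 1.01, 0.757 and 1.01 in NP+ against 0.351, 0.384 and 0.411 in NP- (exact permutation p = 0.1, adjusted 0.175). Platelets also hold Vwf. Platelet markers summed to 12.4 to 14.9 CPM in NP+ against 14.4 to 19.4 CPM in NP-, with 5 of 10 at 0 in at least 1 library. None of the 7 tested had an unadjusted p under 0.05 in edgeR's test, and the part of platelets in the Vwf values was not tested.

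F8, the factor that Vwf carries, had a fold change of the opposite sign. It stood at 9.58, 5.26 and 3.94 CPM in NP+, against 8.17, 14.0 and 5.68 CPM in NP-. The fractions overlapped, and the direction differed between tumours. The log2 fold change was -0.57 (SE 0.48, adjusted p = 0.478), with a 95% interval from -1.67 to 0.53. The ratio of Vwf to F8 in FPKM was 57.3, 61.6 and 142 in NP+ and 26.4, 27.7 and 56.9 in NP-, higher in NP+ within each tumour by 1.12, 1.15 and 1.32 on the log2 scale (exact permutation p = 0.1, adjusted 0.175). The fractions were kept apart only by 57.3 against 56.9. The 56.9 is from the MET-108 NP- library, where F8 lay only 1.71 times above the olfactory receptor level.

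For the plasminogen activators Plat and Plau the 95% intervals of the difference included 0. Plat stood at 169, 200 and 219 CPM in NP+, against 219, 171 and 355 CPM in NP-. The fractions overlapped, the MET-108 NP- library was the highest, and without it the log2 fold change of -0.34 (SE 0.27, adjusted p = 0.442) became 0.028. Plau stood at 271, 213 and 214 CPM in NP+, against 226, 138 and 178 CPM in NP-. It was higher in NP+ within each tumour, by 0.27, 0.63 and 0.27 on the log2 scale, but the fractions overlapped, with tumour MET-106 the highest in both (log2 fold change 0.37, SE 0.22, adjusted p = 0.318). Plaur, the urokinase receptor, stood at 224, 216 and 289 CPM in NP+, against 200, 129 and 296 CPM in NP- (log2 fold change 0.22, SE 0.29, adjusted p = 0.647). Tumour MET-108 was the highest for Plaur in both fractions. The sign of the Plaur difference was negative with upper-quartile scaling (-0.041) and total-count scaling (-0.070). The 95% intervals of Plat, Plau and Plaur ran from -0.95 to 0.27, from -0.13 to 0.86 and from -0.44 to 0.88.

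The ratio of Plat to Plau in FPKM was 0.234, 0.353 and 0.384 in NP+ and 0.364, 0.467 and 0.751 in NP-, lower in NP+ within each tumour with overlap between fractions (exact permutation p = 0.2). The ratio of urokinase to its receptor was 1.35, 1.10 and 0.830 in NP+ against 1.26, 1.19 and 0.670 in NP-, with both directions among the tumours (exact permutation p = 0.8).

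Of the members, Tfpi and Plau had the most similar profiles among the 36 pairs, with a root-mean-square difference of 0.175 between their mean-centred log2 CPM over the 6 libraries, followed by Tfpi and Plaur at 0.248. Vwf and F3 were the least similar, at 1.53. Among 10425 other protein-coding genes of at least 5 CPM, those nearest to Procr were Hnrnpf (0.0497), Cul1 (0.0508) and Suco (0.0537). Those nearest to Vwf were Angel1 (0.123) and Pcdhgb6 (0.136), and those nearest to Thbd were Tmem143 (0.0898), Phf1 (0.118) and Ccpg1os (0.125). Tfpi lay nearest to Gm17018 (0.0271), Polr2d and H2-M3, Plau to Jam3 (0.0554), Nmd3 and Ptma, and Plat to Abcb1b (0.101), Cdkn1a and Pparg. Plaur lay nearest to Gtf2ird2 (0.0724), Gdpd1 and Metap1, and F8 to Camk1d (0.196), Prkcz and Susd2. Tfpi and Plau were thus farther from each other than each was from its nearest genes. The measure shows likeness over 6 libraries that share tumours. No nearest genes were sought for F3, whose mean was under the 5 CPM set for that search.

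In 6 further lists of the pathway, 60 of 61 genes were matched and 53 tested. At an unadjusted p under 0.05, 9 were higher in NP+ (17.0%) and 12 lower (22.6%), beside 8.01% and 15.4% of all genes, and 0 passed an adjusted p of 0.05. With DESeq2 5 were higher and 8 lower at an adjusted p under 0.05, a threshold that 3.17% and 10.3% of all genes passed. With the tumour as a block in edgeR 1 was higher and 0 lower, beside 0.00834% and 0.0542% of all genes. The median log2 fold change of the 53 genes was -0.47.

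Among anticoagulant inhibitors and cofactors, 3 of 9 tested genes were higher and 1 lower at an unadjusted p under 0.05, with a median of 0.33. Of all genes, 8.01% were higher and 15.4% lower. Nt5e and Entpd1, the ectoenzymes that turn the platelet agonist ADP into adenosine, stood at 422 ± 9.19 against 255 ± 19.4 CPM and 948 ± 86.1 against 664 ± 33.4 CPM in NP+ and NP- (adjusted p = 0.102 and 0.145). Both were higher in 3 of 3 tumours. Serpinc1, the antithrombin gene, stood at 2.74 ± 0.377 and 5.69 ± 1.58 CPM (adjusted p = 0.210), and was the lower gene of this list, a call that ended with the tumour as a block (unadjusted p = 0.0702). Of 13 tested genes of coagulation factors and fibrinogen, most of them made in liver, 0 were higher and 3 lower, beside the same shares, with a median of -1.33. The 3 lower genes were F13a1, F7 and F13b. F7 averaged 0.0616 ± 0.0118 CPM in NP+ and 0.729 ± 0.458 in NP-, from 2 to 28 reads. F13b averaged 0.153 ± 0.194 and 1.42 ± 1.49 CPM, from 1 to 75 reads. In FPKM, F7 averaged 0.0331 and 0.392, and F13b 0.0603 and 0.561, near the level of olfactory receptor genes. That level was 0.0327 to 0.1003 FPKM in NP+ and 0.0872 to 0.422 FPKM in NP-, higher in NP- in each tumour. The part of this background in the lower calls and the median of the list was not tested. The genes named next were picked by a mean of at least 1 CPM, and of them only F13a1 was called lower. F5 (2.25 ± 0.548 and 4.79 ± 2.27 CPM), F10 (1.08 ± 0.463 and 3.27 ± 2.28 CPM), F13a1 (1.28 ± 0.636 and 5.07 ± 5.07 CPM) and Kng1 (0.427 ± 0.307 and 2.27 ± 2.10 CPM) had adjusted p values from 0.209 to 0.255. With the tumour as a block 2 of the 13 were lower, since F13a1 had an unadjusted p of 0.186.

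The thrombin receptor gene F2r was the most abundant of the 4 protease-activated receptors, at 560, 408 and 517 CPM in NP+, against 234, 270 and 477 CPM in NP- (log2 fold change 0.60, adjusted p = 0.233). F2rl3 stood at 56.3 ± 9.06 and 43.0 ± 15.7 CPM, F2rl2 at 10.97 ± 3.36 and 14.4 ± 15.1 CPM and F2rl1 at 4.31 ± 0.521 and 6.40 ± 3.30 CPM, and 0 of the 4 had an unadjusted p under 0.05 in edgeR's test. With the tumour as a block in edgeR, F2r had an unadjusted p of 0.0346, and by DESeq2 one of 0.0325 (adjusted p = 0.128).

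In the plasminogen system, 1 of 10 tested genes was higher and 4 lower at an unadjusted p under 0.05, beside 8.01% and 15.4% of all genes. The 4 lower genes were Serpine2, Lrp1, Plg and Serpinf2. Serpinf2 averaged 0.0845 CPM in NP+ and 1.43 CPM in NP-, from 1 to 67 reads per library. In FPKM, Serpinf2 averaged 0.0364 and 0.614, and Plg 0.0607 and 0.791, in NP+ and NP-. Olfactory receptor genes gave 0.0327 to 0.1003 and 0.0872 to 0.422 FPKM, and the part of this background was not tested. Anxa2, part of a surface receptor for plasminogen and tissue-type activator, stood at 2898 ± 28.4 CPM in NP+ against 1942 ± 262 CPM in NP- (log2 fold change 0.58, adjusted p = 0.142). Serpine2, an inhibitor of thrombin and urokinase, stood at 24.0, 12.7 and 10.8 CPM in NP+, against 248, 86.6 and 33.4 CPM in NP-. Lrp1, an endocytic receptor that clears protease and inhibitor complexes, stood at 2.31, 3.99 and 1.98 CPM in NP+, against 79.8, 15.2 and 5.58 CPM in NP-. Both were highest in the MET-106 NP- library, as F3 and the fibroblast markers were, and their log2 fold changes were -2.95 (adjusted p = 0.110) and -3.60 (adjusted p = 0.120). The plasminogen gene Plg stood at 0.167 ± 0.156 and 2.18 ± 2.14 CPM (adjusted p = 0.185). With the tumour as a block its unadjusted p was 0.119, which left 3 lower genes.

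Among Weibel-Palade body genes, 4 of 12 were higher and 2 lower in NP+ at an unadjusted p under 0.05, beside 8.01% and 15.4% of all genes. Selp, the P-selectin gene, stood at 2356, 1496 and 1053 CPM in NP+, against 614, 439 and 236 CPM in NP- (log2 fold change 1.93, adjusted p = 0.0992, and 0.0319 with the tumour as a block). Vwf and Selp, stored in the same granule, thus had log2 fold changes of 0.63 and 1.93. Mmrn1, multimerin, stood at 112, 115 and 95.5 CPM in NP+, against 84.8, 772 and 318 CPM in NP-, highest in the library with the most lymphatic markers, a list that also holds it. Myrip stood at 0.157 ± 0.163 and 2.69 ± 2.04 CPM (adjusted p = 0.145). In FPKM it averaged 0.0284 and 0.486, beside 0.0327 to 0.1003 and 0.0872 to 0.422 FPKM for olfactory receptor genes. Of the genes that process or clear Vwf and factor VIII, Lman1, a cargo receptor that moves factor VIII out of the endoplasmic reticulum, stood at 212 ± 19.9 against 137 ± 19.1 CPM (adjusted p = 0.131). Its partner Mcfd2 stood at 117 ± 10.4 and 110 ± 6.66 CPM, Furin, which cleaves the Vwf precursor, at 28.0 ± 5.82 and 21.6 ± 3.99 CPM, and the scavenger receptor Stab2 at 2.24 ± 0.469 and 8.54 ± 5.52 CPM (adjusted p = 0.146). The 12 pan-endothelial genes summed to 13252 to 15217 CPM in NP+ against 8487 to 11198 CPM in NP-. Of these, 5 of 12 were higher at an unadjusted p under 0.05, beside 8.01% of all genes.

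On GRCm38 the 9 protein-coding genes lie as follows in the count files, whose counts cover all exons of a gene together. Vwf (ENSMUSG00000001930) lies on chromosome 6 from 125546774 to 125686679, F3 (ENSMUSG00000028128) on chromosome 3 from 121723537 to 121735048 and Procr (ENSMUSG00000027611) on chromosome 2 from 155751117 to 155755471, all on the plus strand. Thbd (ENSMUSG00000074743) lies on chromosome 2 from 148404466 to 148408188 and Tfpi (ENSMUSG00000027082) on chromosome 2 from 84432855 to 84476775, both on the minus strand. F8 (ENSMUSG00000031196) lies on chromosome X from 75172715 to 75382615, minus strand. Plat (ENSMUSG00000031538) lies on chromosome 8 from 22757727 to 22782844, Plau (ENSMUSG00000021822) on chromosome 14 from 20836662 to 20843388 and Plaur (ENSMUSG00000046223) on chromosome 7 from 24462484 to 24475968, all plus strand. The exons of 0 other counted genes overlap those of the 9.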

How the data were processed

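RNA was measured by sequencing in 6 libraries, 3 NP+ and 3 NP-, grouped and tied to tumours by the labels. Per the series design these are 3 separate tumours. Per the labels' protocols, cDNA was made with a SMART-Seq v4 kit and sequenced as pairs of 150 bp reads. No molecular identifiers are named, so reads are not independent molecules. The deposited files hold whole-number read counts per gene and the summed exon length. The build was GRCm38 (mm10) and the tools included DESeq2, the aligner STAR (2.5.2b), Subread (1.5.2) with featureCounts, and Trimmomatic (0.036), per the submitters' processing notes. For strand and multi-mapped reads, the settings were not given in the sources used here. The authors' deposited table adds a signal (count over a size factor), p-values and log2 fold changes with NP+ as the reference. Of 156426 such deposited signal values, 100% gave whole reads within 0.01 reads, and the count test on those reads called 3 genes higher and 4 lower at an adjusted p of 0.05, the same numbers as on the deposited counts.

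The test was edgeR 4.0.16 (R 4.3.3) quasi-likelihood on 23989 genes kept by filterByExpr (minimum count 10), with TMM scaling and Benjamini-Hochberg adjustment over all genes, and was tried on simulated data. The SE is the log2 fold change over the square root of F. Log2 CPM used a prior count of 2. DESeq2 1.42.0, limma 3.58.1 (voom), other scalings and filters, each library and tumour left out, and the tumour as a block were alternatives. Libraries of a tumour pair by animal, and same-tumour deviations from group means correlated at 0.28, 0.21 and 0.02. Members and lists were chosen with earlier results of these data known. Named were the 9 genes, per list up to 4 genes of at least 1 CPM with the smallest p, the sorting markers, and the 3 nearest profiles per gene. A few of these genes, and 1 of the 7 ratios, are not reported here. Promoters of Vwf, Thbd, Plat and Plau were not used here.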

Additional observations from a re-analysis of the deposited data

How the results depend on the processing

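Under 19 alternatives (18 for F3, which has too few counts for the 5 CPM filter), F3, Thbd, Procr, Vwf, F8, Tfpi and Plau kept their direction. Plat ranged from -0.57 to 0.028 with libraries left out, turning without the MET-108 NP- library. Over all 19 alternatives its lowest value was -0.63. Plaur ranged from -0.021 (without the MET-107 NP- library) to 0.58, and was -0.041 with upper-quartile, -0.070 with total-count scaling and -0.043 with at least 5 CPM in 3 libraries. In edgeR, the replicate block changed no call among the 9 genes. Members higher at an adjusted p of 0.05 numbered 1 by DESeq2 with the tumour as a replicate block (Procr, 0.0411), beside 4.77% of all genes. With libraries left out they numbered 0 to 1, beside 0% to 3.48% of all genes. Members lower numbered 1 by DESeq2, blocked (F3, 0.0164) or not, beside 10.4% and 10.3%. At an unadjusted p under 0.05, 1 was higher, and 2 by DESeq2 (blocked or not), limma-voom, RLE or no filter, 0 with total counts or the 5 CPM filter and 0 to 2 with libraries left out. Of all genes, 8.01% were higher, and 6.53% and 5.48% by DESeq2 blocked or not, 9.26% by limma-voom, 8.87% with RLE and 6.43% with no filter. With total counts it was 2.54%, with the 5 CPM filter 6.44% and with libraries left out 3.89% to 12.3%. Beside 2 lower, there was 1 with no filter, the 5 CPM filter or blocked DESeq2 and 0 to 2 with libraries left out. Of all genes, 15.4% were lower, and 12.2%, 8.75%, 13% and 7.71% to 22.4% in that order. Plat was lower at an unadjusted p under 0.05 as well in 1 of the 19 alternatives, with all libraries kept. The causes were not tested.

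Against 9 pathway genes higher at an unadjusted p, there were 5 with upper-quartile, 3 with total-count scaling, 4 with the 5 CPM filter and 5 to 13 with libraries left out. The share of all genes moved too, from 8.01% to 3.27%, 2.54%, 6.44% and 3.89% to 12.3% in that order. Against 12 lower, there were 4 with limma-voom, 4 with the 5 CPM filter and 2 to 14 with libraries left out. The share of all genes moved from 15.4% to 7.45%, 8.75% and 7.71% to 22.4%. At an adjusted p, higher and lower numbered 1 and 0 with the replicate block in edgeR, 5 and 8 by DESeq2, 7 and 8 by blocked DESeq2, 3 and 4 with no filter, 2 and 0 at a threshold of 0.1, and 0 to 6 and 0 to 2 with libraries left out. Of all genes, 0.00834% and 0.0542% were higher and lower with the edgeR block, 3.17% and 10.3% by DESeq2, 4.77% and 10.4% by blocked DESeq2 and 1.19% and 1.55% with no filter. With libraries left out, 0% to 3.48% of all genes were higher and 0% to 4.86% lower. F2rl2 turned to 0.080 with the replicate block, 0.20 by blocked DESeq2 and 0.15 by limma-voom, and ranged from -0.81 to 0.99 with libraries left out, above 0 without the MET-108 NP- library (0.98) or both MET-108 libraries. Mcfd2 turned to -0.16, -0.21 and -0.18 with upper-quartile scaling, total counts and the 5 CPM filter. The Plau/Plaur ratio difference ranged from -0.19 to 0.28, below 0 without the MET-106 NP+ library (-0.07) or the MET-108 NP- library. With libraries left out, 0 to 2 of the 36 pairs of genes changed their order by level. Blocked DESeq2, the recovered reads and the ratios were added after seeing the data.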
